A study of Rattus norvegicus with 4 samples.

Results

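The genes described here serve protein folding and quality control in the endoplasmic reticulum (ER): its chaperones, its disulfide isomerases and oxidases, the sensors and regulators of the unfolded protein response (UPR), and the machinery of ER-associated degradation. They were named as a list by function, and 40 spellings gave 38 genes after alternative symbols of the same gene were merged (Ero1b with Ero1lb, Ero1a with Ero1l). All 38 were found among the 23360 gene symbols of the expression tables, and all passed the expression filter. By textbook role they fall into 14 chaperones and co-chaperones, 7 disulfide isomerases and oxidases, 6 UPR sensors and regulators, and 11 ER-associated degradation genes.

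The ER folds secreted proteins with the help of Hsp70- and Hsp90-type chaperones, lectin chaperones and disulfide isomerases. When unfolded protein accumulates, the sensors IRE1 (Ern1), ATF6 and PERK (Eif2ak3) raise the transcription of these helpers and limit translation, and proteins that stay misfolded are retrotranslocated to the cytosol and degraded by the proteasome. Beta cells make large amounts of proinsulin, whose folding needs disulfide bonds, and depend on this system.

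INS-1 832/3, a rat insulinoma line that carries a human insulin gene and is kept under geneticin, was grown either as a standard 2D monolayer or 3D-bioprinted in GelXA LAMININK 411, a hydrogel of gelatin methacrylate with laminin-411. Both groups were kept in the same RPMI-1640 medium with serum, and RNA was taken on day 5 at passage 3. Each group has 2 samples that the labels call biological replicates, named here 2D R1, 2D R2, 3D R1 and 3D R2, and a single cell line was used. Expression is given as TPM (transcripts per 1000000), a level normalised for transcript length, so that levels of different genes can be set side by side within a sample. TPM sum to the same total in every sample and keep no sequencing depth, so no counting error is included. The SD given is the spread between the cultures of a group. The SE and intervals come from a model that moderates the spread of each gene toward that of genes of similar level.

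Of 9 beta cell markers listed in the tables, 9 had a mean of at least 1 TPM, and their summed level was 139692 to 161831 TPM, mostly from Ins1. Among the 5 alpha and delta cell markers only Gcg reached 1 TPM, with 41.9 and 73.8 TPM in 2D against 124 and 155 TPM in 3D. Irx2 and Hhex, of the same list, were listed at 0, and the part of Gcg-expressing cells in the results was not tested. The 6 acinar and ductal markers summed to 0.775 to 0.848 TPM, with Cpa1, Pnlip and Prss1 at 0. Most of this was Sox9, at 0.730 and 0.743 TPM in 2D and 0.702 and 0.650 TPM in 3D. The 6 endothelial and fibroblast markers summed to 0.982 to 1.50 TPM, with Cdh5, Dcn and Pdgfrb at 0. Nearly all of this was Kdr, at 0.966 and 1.00 TPM in 2D and 1.27 and 1.48 TPM in 3D. Its mean of 1.18 TPM passed 1 TPM, and its source was not tested. Because each library was one bulk culture, a lower level can stand for fewer cells that express a gene or for less RNA per cell, and these cannot be told apart.

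Many of these genes are known to be transcribed from ER stress response elements, and the promoters are shown here for that reason. RefSeq promoter windows (assembly GRCr8, 250 bases before to 50 after the start of the gene) were matched by symbol for 30 of the 38 genes, and Atf6, Derl1, Ern1, Ero1a, Manf, Os9, Pdia3 and Pdia6 had no match. Both strands were searched for the ER stress response element ERSE (CCAAT, any 9 bases, CCACG) and for the second element, ERSE-II (ATTGG, any 1 base, CCACG). ERSE was found in 9 members (Calr, Canx, Creld2, Derl3, Dnajc3, Ero1b, Hsp90b1, Hspa5 and Xbp1), and in 22 of all 33469 windows (0.0657%). ERSE-II was found in Dnajb11, Herpud1 and Hyou1, and in 17 of all windows (0.0508%). Hsp90b1 and Hyou1 held 2 copies each, and the copy of Dnajb11 spans the start of the gene. The 250 bases before the start are given for 6 genes, 5′ to 3′ on the strand of the gene, with the fixed letters of each element in capitals. They are 3 ERSE genes that were lower in 3D (Hspa5, Creld2, Derl3), 2 ERSE genes with the opposite sign of the estimate (Xbp1, Canx), and Hyou1 with its ERSE-II copies:
Hspa5, chr3:38452766-38453015, plus strand: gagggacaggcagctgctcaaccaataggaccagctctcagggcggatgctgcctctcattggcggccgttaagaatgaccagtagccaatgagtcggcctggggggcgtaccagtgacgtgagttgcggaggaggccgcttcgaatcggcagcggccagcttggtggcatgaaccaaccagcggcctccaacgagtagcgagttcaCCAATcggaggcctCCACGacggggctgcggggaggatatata
Creld2, chr7:121789134-121789383, plus strand: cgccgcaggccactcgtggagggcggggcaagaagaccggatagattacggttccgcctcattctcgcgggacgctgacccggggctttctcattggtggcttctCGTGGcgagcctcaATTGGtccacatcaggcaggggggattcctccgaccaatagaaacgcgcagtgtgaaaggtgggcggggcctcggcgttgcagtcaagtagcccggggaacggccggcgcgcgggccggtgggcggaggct
Derl3, chr20:12766466-12766715, minus strand: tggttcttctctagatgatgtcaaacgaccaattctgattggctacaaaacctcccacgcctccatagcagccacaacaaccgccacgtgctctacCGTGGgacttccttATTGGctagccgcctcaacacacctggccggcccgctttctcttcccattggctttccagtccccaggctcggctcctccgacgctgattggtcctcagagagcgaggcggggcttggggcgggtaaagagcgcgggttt
Xbp1, chr14:84604373-84604622, plus strand: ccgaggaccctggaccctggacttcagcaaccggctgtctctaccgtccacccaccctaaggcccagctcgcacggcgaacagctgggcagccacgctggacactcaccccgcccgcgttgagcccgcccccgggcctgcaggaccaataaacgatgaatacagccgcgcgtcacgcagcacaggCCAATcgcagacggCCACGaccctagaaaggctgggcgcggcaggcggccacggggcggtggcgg
Canx, chr10:35157858-35158107, minus strand: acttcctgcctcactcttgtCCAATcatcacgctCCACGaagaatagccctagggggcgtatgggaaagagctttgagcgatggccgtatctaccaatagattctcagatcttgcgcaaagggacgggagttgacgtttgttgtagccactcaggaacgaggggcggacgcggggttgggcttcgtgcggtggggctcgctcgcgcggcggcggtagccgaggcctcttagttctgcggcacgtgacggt
Hyou1, chr8:53602632-53602881, plus strand: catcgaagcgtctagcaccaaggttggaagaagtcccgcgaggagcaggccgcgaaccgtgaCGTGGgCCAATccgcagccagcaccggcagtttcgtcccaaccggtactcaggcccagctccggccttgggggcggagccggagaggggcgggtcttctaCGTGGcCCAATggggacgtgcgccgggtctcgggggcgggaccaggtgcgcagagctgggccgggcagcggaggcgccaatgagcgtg
The assembly of these windows is not the rn4 reference of the expression values, so they serve to show the elements and not to place reads. The shorter XBP1 element TGACGTGG was found in Dnajc10, Hyou1 and Vcp and in 0.595% of all windows. The core GACGTG, which lies within it, was found in those genes and in Hspa5, and in 6.31% of all windows.

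The comparison of 3D with 2D asked how these transcripts differed between the cultures in each arm. Printing, UV crosslinking, the hydrogel and growth in 3D came together in the 3D cultures, so their parts cannot be told apart. In 3D, 6 of the 14 chaperones were lower and none was called higher, led by Creld2, Dnajb11, Sdf2l1, Manf and Hspa5. The number lower fell with each culture left out, and without 3D R1 only Creld2 stayed called. Without 2D R1 Canx and Uggt1 were called higher. The sensor transcripts Ern1 and Atf6 were higher, as were the oxidase Ero1a, the isomerase P4hb and the degradation lectin Os9. Differences were tested with limma on log2(TPM + 1) after scaling, and p-values were adjusted by Benjamini-Hochberg over the 11960 genes tested. At an adjusted p below 0.05, 15 members were called (39.5%), against 38.0% of all genes tested. By direction, 5 of the 38 members were higher, against 18.5% of all genes, and 10 of the 38 were lower, against 19.5%. Creld2, Dnajb11 and Ero1a also passed 0.01, which 12.0% of all genes did. The TPM of the groups did not overlap for 27 members (71.1%), against 74.2% of all genes. The median log2 fold change of the members was -0.09, beside -0.0035 over all genes, and their median absolute change was 0.24, beside 0.22. As a whole the members were therefore called about as often as any gene, and the arms are described by their own genes.

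Of the 15 calls only that of Creld2 held with each culture left out, and the others depended on which cultures were included. Without 2D R1, and likewise without 2D R2, some of the 15 lost their calls and some other members were called. Without 3D R1 only Creld2 was called, where 108 of all genes were, and without 3D R2 Creld2, Dnajb11, Manf and Sdf2l1 were called, where 632 of all genes were. Leaving out a culture reversed the sign of none of the 15. Permuting the labels of 4 samples could give no two-sided exact p under 0.33 for any one gene, so each p below comes from the model over all genes.

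**Figure D1:**
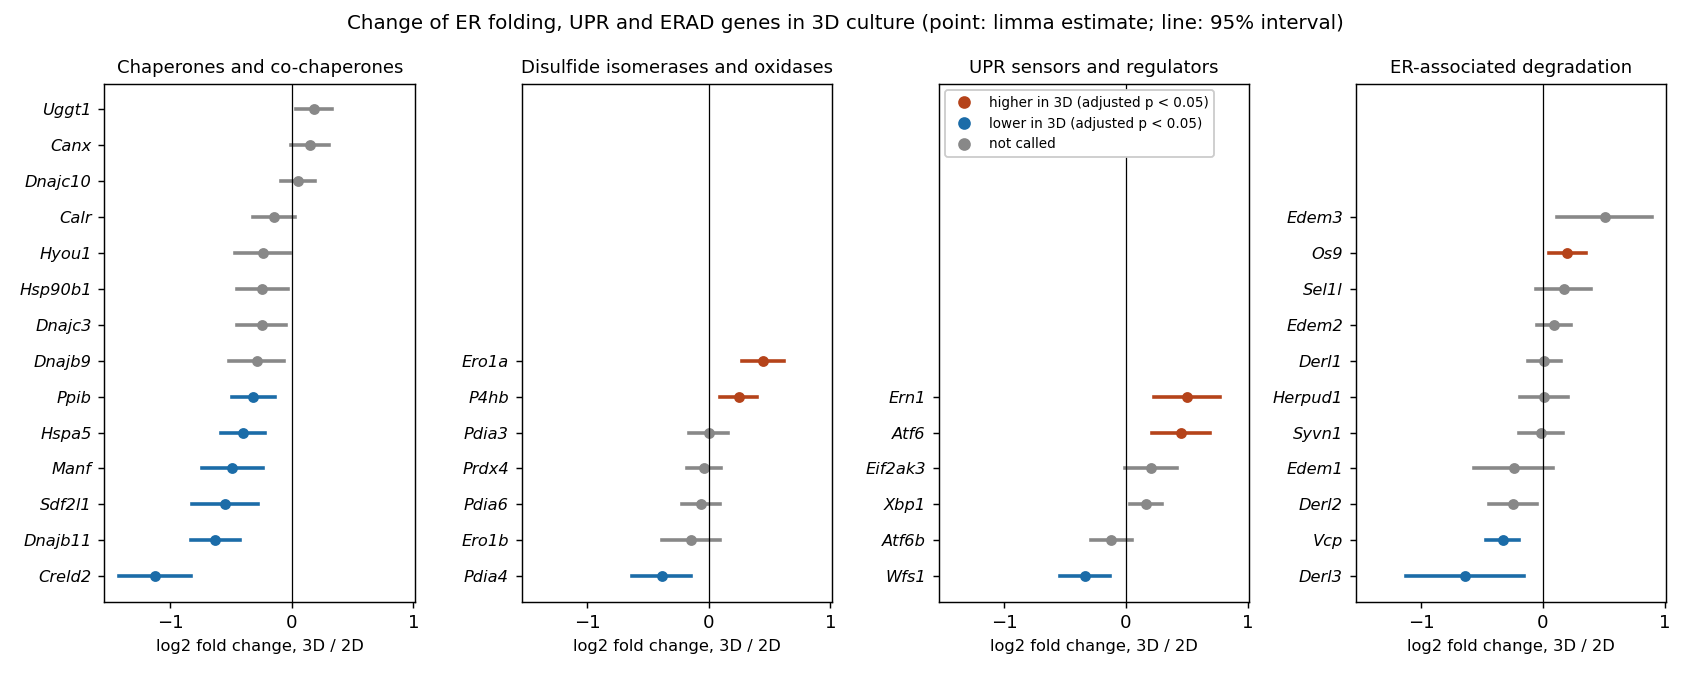
Log2 fold change of each of the 38 genes (3D over 2D, log2(TPM + 1) scale, horizontal axis) by arm, with 95% confidence intervals from limma. Coloured points have an adjusted p below 0.05. Among the 14 chaperones 11 estimates lie left of 0, from Creld2 at -1.12, while the UPR panel holds 4 of 6 to the right.

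In the chaperone arm the median log2 fold change was -0.27, 11 of 14 estimates were negative, and 12 genes (85.7%) had no overlap between groups, beside 74.2% of all genes. The median was -0.18 without 3D R1. Its summed level was 5113 and 4760 TPM in the 2D cultures and 3966 and 4472 TPM in the 3D cultures. Creld2, a secreted ER protein with isomerase activity that is induced by ER stress, changed most of all members. It was at 126 and 117 TPM in 2D and at 49.8 and 65.1 TPM in 3D, a mean of 122 ± 6.27 against 57.4 ± 10.8 TPM (SD, n = 2). Both 3D cultures were far below both 2D cultures (log2 fold change -1.12, SE 0.12, adjusted p = 0.00458 with limma). The call held with each culture left out (adjusted p 0.0172 to 0.0421) and under every other setting tried. Dnajb11, an Hsp40 co-chaperone of BiP, was at 177 and 168 TPM in 2D and 106 and 124 TPM in 3D, with no overlap (log2 fold change -0.63, SE 0.08, adjusted p = 0.00592). Its call was lost only without 3D R1 (adjusted p = 0.0600).

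Sdf2l1, which works in a complex with Dnajb11 and keeps aggregation-prone clients soluble, was at 104 and 102 TPM in 2D and at 64.4 and 81.6 TPM in 3D. The groups did not overlap, and the 3D cultures lay further apart than the 2D cultures (log2 fold change -0.55, SE 0.11, adjusted p = 0.0153). Manf, an ER-resident and secreted factor that protects beta cells, was at 263 and 250 TPM in 2D and at 169 and 209 TPM in 3D. It too had no overlap and a wider spread in 3D (log2 fold change -0.49, SE 0.10, adjusted p = 0.0169). Hspa5 (BiP), the major Hsp70 chaperone of the ER and the protein that holds the UPR sensors inactive, was at 1219 and 1099 TPM in 2D and 858 and 952 TPM in 3D. The 3D levels were lower in both cultures (log2 fold change -0.40, SE 0.07, adjusted p = 0.0125). Ppib, the ER cyclophilin (a prolyl isomerase), was at 246 and 257 TPM in 2D and 200 and 217 TPM in 3D. Again the groups stood apart (log2 fold change -0.31, SE 0.07, adjusted p = 0.0228).

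The calls of these 4 genes each needed at least 1 particular culture. Hspa5 was not called without 3D R1 (adjusted p = 0.115) or 3D R2 (0.0636). Sdf2l1 lost its call without 2D R2 (adjusted p = 0.0681) or 3D R1 (0.0759). Manf was called only when 3D R2 was the culture left out (adjusted p = 0.0468), and was at 0.0544 to 0.0850 otherwise. Ppib was called only without 2D R1 (adjusted p = 0.0218), and was at 0.0637 to 0.158 otherwise.

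The other 8 chaperones were not called. Hsp90b1 (GRP94), the Hsp90 of the ER, was at 1201 and 1113 TPM in 2D and 934 and 1090 TPM in 3D. The groups did not overlap, but 3D R2 was close to 2D R2 (log2 fold change -0.24, SE 0.08, adjusted p = 0.0709). Hyou1 (GRP170), the nucleotide exchange factor of BiP, was at 206 and 184 TPM in 2D and 156 and 186 TPM in 3D, so that 3D R2 fell inside the 2D range (adjusted p = 0.0861). Dnajb9 and Dnajc3, both Hsp40 co-chaperones of BiP, had log2 fold changes of -0.29 and -0.25 (adjusted p = 0.0558 and 0.0600). The lectin chaperones of the calnexin cycle, which bind glycoproteins, gave estimates of different sign. The soluble Calr was at 1115 and 1067 TPM in 2D and 965 and 1073 TPM in 3D (log2 fold change -0.14, adjusted p = 0.152). The membrane-bound Canx was at 275 and 240 TPM in 2D and 295 and 294 TPM in 3D (0.15, adjusted p = 0.108, and 0.0439 without 2D R1). Uggt1, the glucosyltransferase that returns misfolded glycoproteins to these lectins, was at 60.7 and 54.0 TPM in 2D and 66.4 and 68.0 TPM in 3D (0.18, adjusted p = 0.0568). Uggt1 was called higher without 2D R1 (adjusted p = 0.0363) and with a filter at 5 TPM (0.0371). Dnajc10 (ERdj5), a reductase that opens disulfides before degradation, was at 42.5 to 48.1 TPM in all 4 cultures (0.05, 95% interval -0.09 to 0.19).

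**Figure D2:**
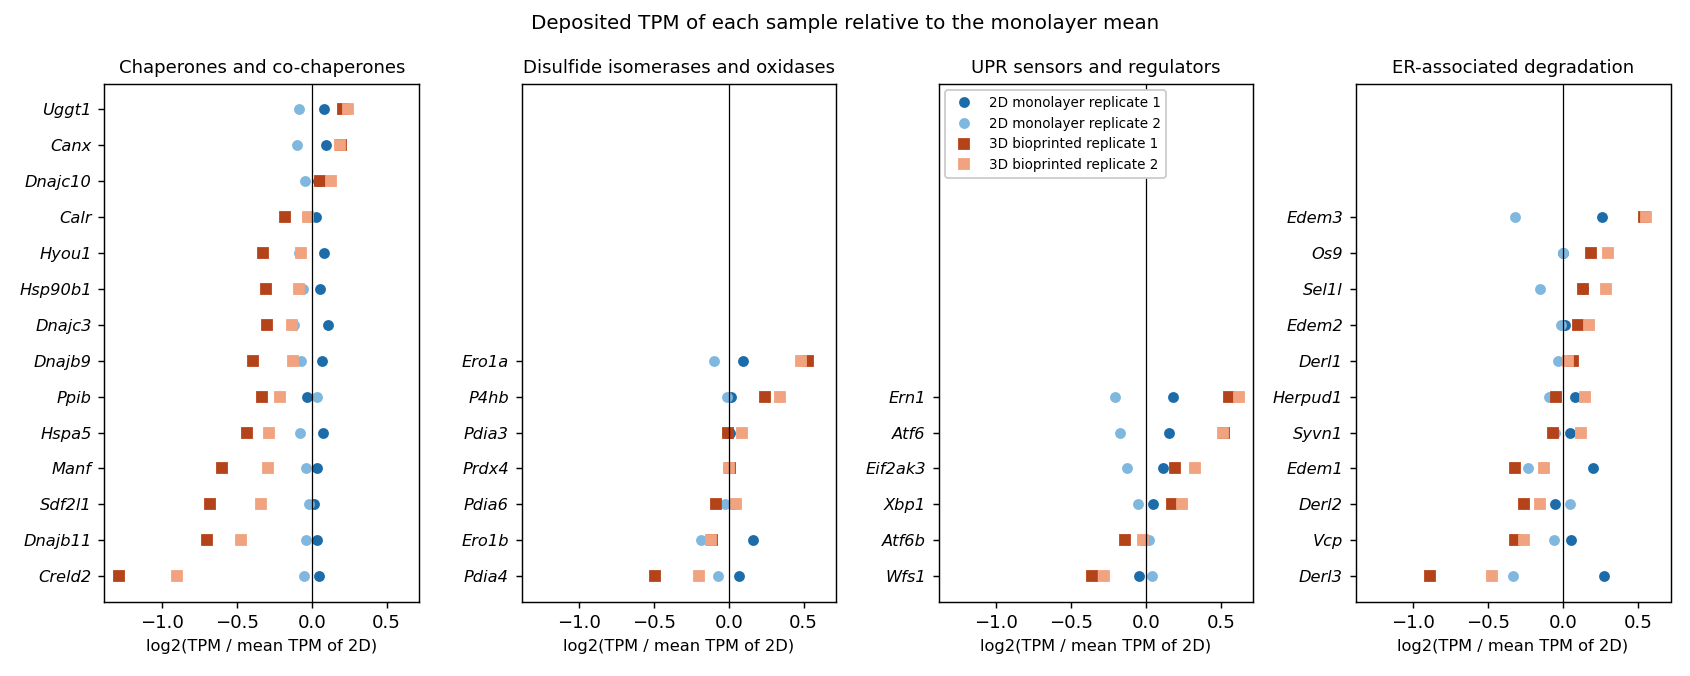
Level of each of the 38 genes in each culture, as log2 of its TPM over the mean TPM of the 2D cultures (horizontal axis), by arm, with circles for 2D and squares for 3D. Both squares of Creld2, Dnajb11, Sdf2l1, Manf and Hspa5 lie left of the circles, and those of Ern1, Atf6 and Ero1a lie to the right.

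Of the 7 genes that form and rearrange disulfides, P4hb and Ero1a were higher in 3D and Pdia4 was lower, with a median log2 fold change of -0.04. The sign of this median turned with the scaling (0.0067 without scaling), and without 2D R2 (0.0041). In this arm 3 genes (42.9%) had no overlap between groups, beside 74.2% of all genes. P4hb (PDI), the archetypal protein disulfide isomerase, was at 691 and 677 TPM in 2D and 811 and 865 TPM in 3D. Both 3D cultures were above both 2D cultures (log2 fold change 0.25, SE 0.06, adjusted p = 0.0276). Pdia4 (ERp72), another isomerase, was at 230 and 208 TPM in 2D and 155 and 190 TPM in 3D. It had no overlap in the other direction (log2 fold change -0.39, SE 0.10, adjusted p = 0.0298). Either call was lost with any 1 culture left out, with adjusted p of 0.0554 to 0.173 for P4hb and 0.0508 to 0.135 for Pdia4. Without the expression filter neither was called (adjusted p = 0.0655 for P4hb and 0.0569 for Pdia4), and Pdia4 was not called without scaling (0.0592) nor P4hb with replicate number as a block (0.0507).

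Ero1a and Ero1b are the oxidases that recharge the isomerases, and Ero1b is the form typical of islets. Ero1a was at 22.2 and 19.4 TPM in 2D and 30.1 and 29.2 TPM in 3D. Its 3D cultures were closely spaced and above both 2D cultures (log2 fold change 0.45, SE 0.07, adjusted p = 0.00887). The call was lost without 3D R1 (adjusted p = 0.0911) or 3D R2 (0.0650). Ero1b was at 94.0 and 73.9 TPM in 2D and at 77.8 and 77.5 TPM in 3D, so that the 3D values lay within the 2D range (log2 fold change -0.14, 95% interval -0.38 to 0.10, adjusted p = 0.271, and 0.0337 without 2D R2). Ero1b was the more abundant in every culture, by a ratio of TPM of 4.23 and 3.80 in 2D and of 2.58 and 2.66 in 3D.

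The remaining oxidoreductases were not called, with intervals on both sides of 0. Pdia3 (ERp57), the isomerase that works with the lectin chaperones, was at 981 and 969 TPM in 2D and 974 and 1038 TPM in 3D, with a 95% interval of -0.16 to 0.16 on the log2 scale. Pdia6 was at 384 to 421 TPM over the 4 cultures (interval -0.22 to 0.09). Prdx4, the ER peroxiredoxin that uses peroxide to form disulfides, was at 144 to 146 TPM (interval -0.18 to 0.10). The 7 genes together summed to 2577 and 2492 TPM in 2D and to 2577 and 2767 TPM in 3D.

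Among the UPR sensors and regulators Ern1 and Atf6 were higher in 3D and Wfs1 was lower. The median log2 fold change was 0.18, and 5 of the 6 genes (83.3%) had no overlap, beside 74.2% of all genes. Ern1 (IRE1), the kinase and endoribonuclease that splices Xbp1 mRNA, was at 8.64 and 6.60 TPM in 2D and 11.2 and 11.7 TPM in 3D. The 3D levels exceeded both 2D levels (log2 fold change 0.50, SE 0.11, adjusted p = 0.0198). Atf6, the membrane-bound transcription factor released by proteolysis in the Golgi, was at 12.8 and 10.2 TPM in 2D and 16.5 and 16.4 TPM in 3D. The difference was again larger than the spread (log2 fold change 0.45, SE 0.10, adjusted p = 0.0185). Both transcripts were low, and neither was called when genes below 1 TPM entered the test (adjusted p = 0.0609 for Ern1 and 0.0556 for Atf6). Ern1 also lost its call without 3D R1 (adjusted p = 0.117) or 3D R2 (0.124), and so did Atf6 (0.128 and 0.108).

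Wfs1 (wolframin), an ER membrane protein of beta cells that restrains ATF6, was at 12.7 and 13.5 TPM in 2D and 10.2 and 10.8 TPM in 3D. The groups did not overlap (log2 fold change -0.33, SE 0.08, adjusted p = 0.0274). Its call was lost with any culture but 2D R1 left out, at adjusted p of 0.0839 to 0.170. Xbp1, the transcription factor downstream of Ern1, was at 139 and 130 TPM in 2D and 151 and 159 TPM in 3D (log2 fold change 0.16, SE 0.05, adjusted p = 0.0576). Its groups did not overlap, and it was called without scaling (adjusted p = 0.0430) and with a filter at 5 TPM (0.0369). The tables list 1 transcript of Xbp1, so the spliced and unspliced forms cannot be told apart. Eif2ak3 (PERK), the kinase that slows translation, was at 11.9 and 10.1 TPM in 2D and 12.6 and 13.8 TPM in 3D, without overlap but with a difference near the spread (0.20, SE 0.09, adjusted p = 0.109). Atf6b, the paralogue of Atf6, was at 99.3 and 102 TPM in 2D and 91.6 and 99.6 TPM in 3D (-0.12, adjusted p = 0.205), and was far more abundant than Atf6 in every culture.

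In ER-associated degradation, Vcp and Derl3 were lower in 3D and Os9 was higher, and the median log2 fold change of the 11 genes was 0.01, a value whose sign turned without the filter (-0.0264), without 2D R2 (-0.0286) and without 3D R2 (-0.0749). Vcp (p97), the ATPase that pulls substrates out of the membrane, was at 437 and 403 TPM in 2D and 337 and 351 TPM in 3D. Both 3D cultures were well below both 2D cultures (log2 fold change -0.33, SE 0.05, adjusted p = 0.0103). The call was lost without 3D R1 (adjusted p = 0.104) or 3D R2 (0.0752). Derl3, a derlin of the retrotranslocation complex, was at 17.2 and 11.3 TPM in 2D and 7.72 and 10.3 TPM in 3D. The lower 2D culture and the higher 3D culture were close (log2 fold change -0.64, SE 0.19, adjusted p = 0.04998). Os9, a lectin that delivers glycoproteins to the Hrd1 ligase, was at 136 and 136 TPM in 2D and 155 and 168 TPM in 3D. Both 3D cultures were higher (log2 fold change 0.20, SE 0.06, adjusted p = 0.04999). Of the 11 genes, 7 (63.6%) had no overlap between groups, beside 74.2% of all genes.

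Derl3 and Os9 lay just inside the threshold and Edem3 just outside. Derl3 was not called without scaling (adjusted p = 0.0852), with median of ratios scaling (0.0505), without the filter (0.102) or without the trend in the prior variance (0.0678). Os9 was not called with a pseudocount of 0.1 (adjusted p = 0.0516), without the filter (0.0998) or without the trend (0.0863). Derl3 was called with 2D R2 left out (adjusted p = 0.0362) but with no other culture omitted (up to 0.237), with log2 fold changes of -0.39 to -0.89, and Os9 with none (0.0617 to 0.250). Edem3, a mannosidase that marks glycoproteins for degradation, was at 19.4 and 12.9 TPM in 2D and 23.6 and 23.8 TPM in 3D. Its 2D cultures differed widely while its 3D cultures nearly coincided (log2 fold change 0.51, SE 0.16, adjusted p = 0.0503). It was called higher with median of ratios scaling (adjusted p = 0.0486), a pseudocount of 0.1 (0.0497), a filter at 5 TPM (0.0336) or the replicate number as a block (0.0125). Without 2D R1 its log2 fold change was 0.75 (adjusted p = 0.0126) and without 2D R2 it was 0.27 (0.0489), both past the threshold. The related mannosidases gave 32.9 and 24.4 TPM in 2D against 23.0 and 26.3 TPM in 3D for Edem1 (adjusted p = 0.188, and 0.0472 without 2D R2), and 64.2 and 63.0 against 68.1 and 71.7 TPM for Edem2 (0.234). Derl2, a further derlin, was at 35.6 and 38.3 TPM in 2D and 30.9 and 33.2 TPM in 3D without overlap (-0.24, adjusted p = 0.0591, and 0.0296 without 2D R1).

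The core of the Hrd1 complex and Derl1 were not called. Syvn1 (Hrd1), the ubiquitin ligase, had a 95% interval of -0.19 to 0.16 on the log2 scale, and its levels of 47.0 to 53.4 TPM overlapped. Sel1l, its adaptor, was at 40.6 and 33.4 TPM in 2D and 40.6 and 45.2 TPM in 3D (0.17, interval -0.06 to 0.40). Herpud1, which organises the complex and is strongly induced by ER stress, was at 47.0 and 41.7 TPM in 2D and 42.9 and 49.1 TPM in 3D (0.01, interval -0.19 to 0.21). Derl1 was at 57.7 to 61.9 TPM in all 4 cultures (0.01, interval -0.13 to 0.15).

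**Figure D3:**
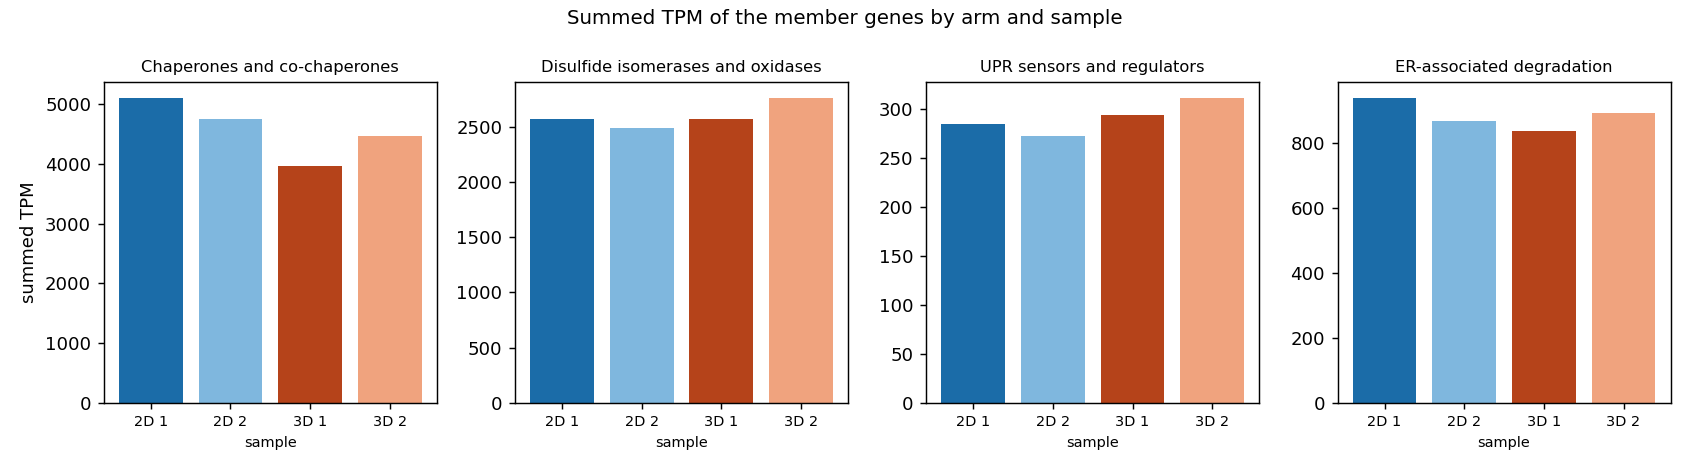
Summed TPM of the genes of each arm (vertical axis, from 0), with a bar for each culture. The chaperone sum is 5113 and 4760 TPM in 2D against 3966 and 4472 TPM in 3D. The UPR sum is 284 and 272 TPM in 2D against 293 and 311 TPM in 3D, without overlap. Most of it is Xbp1 (means of 134 TPM in 2D and 155 TPM in 3D) and Atf6b (101 and 95.6 TPM), neither of them called. The degradation sums overlap between groups, and the disulfide sums meet at 2577 TPM in 2D R1 and 3D R1.

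The most abundant members were Hsp90b1, Calr, Hspa5, Pdia3 and P4hb, which ranked between 114 and 158 of the 16749 genes above 0. Of these Hspa5 was lower, P4hb was higher, and the others were not called. The least abundant, Ern1, Wfs1, Derl3, Eif2ak3 and Atf6, ranked between 6518 and 7772. Of these Ern1 and Atf6 were higher, Wfs1 and Derl3 were lower, and Eif2ak3 was not called, where 38.0% of all genes were called. Over all 38 genes the summed level was 8914 and 8394 TPM in 2D and 7674 and 8443 TPM in 3D, which was 0.891, 0.839, 0.767 and 0.844% of TPM, and the groups overlapped.

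Read against the promoter elements, the 12 genes with ERSE or ERSE-II in the window held 4 that were lower (Creld2, Derl3, Dnajb11 and Hspa5), none that was higher and 8 that were not called, where 19.5% of all genes were lower and 18.5% higher. Their median log2 fold change was -0.24, with a range of -1.12 to 0.16. The 18 matched genes with neither element held 5 that were lower and 1, P4hb, that was higher, with a median of -0.08 and a range of -0.55 to 0.51. Among the 8 unmatched genes were Ern1, Atf6, Ero1a and Os9, all higher, and Manf, which was lower. The difference between these sets was not tested, and only exact matches to the elements were counted. The sets also overlap the arms. Of the genes with an element, Calr, Canx, Creld2, Dnajb11, Dnajc3, Hsp90b1, Hspa5 and Hyou1 belong to the chaperone arm. Genes with the same element differed widely, since Creld2 and Xbp1, whose elements are printed above, had log2 fold changes of -1.12 and 0.16.

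**Figure D4:**
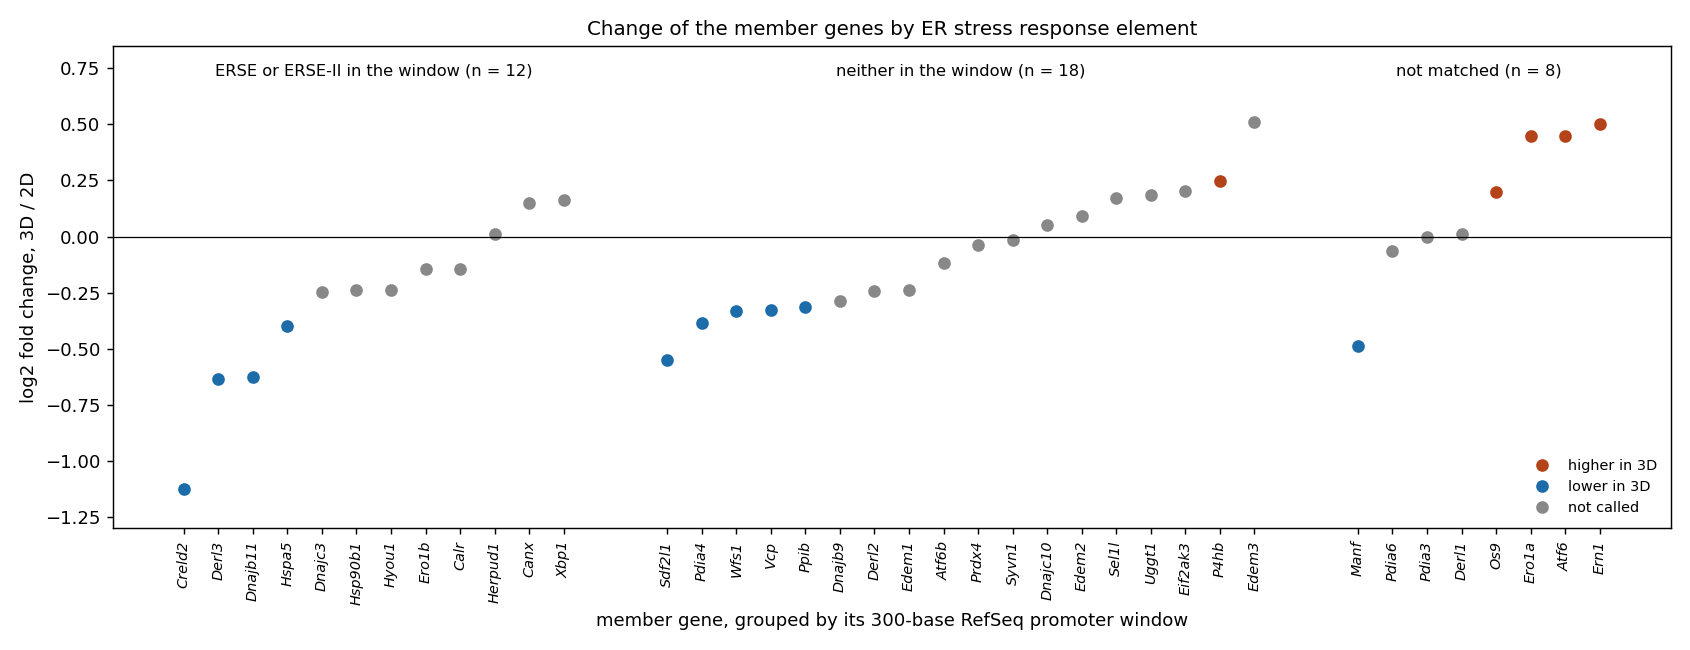
Log2 fold change (3D over 2D, vertical axis) of the 38 genes, grouped by whether the 300-base promoter window held an ER stress response element. Points are genes, coloured by call, and of the 12 genes with an element 4 were lower and none higher, where 19.5% and 18.5% of all genes were.

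The other genes of the same pathways were taken from lists by function. Of the 87 found, 78 were tested, and 10 were higher and 8 lower, a share of 23.1%, beside the 38.0% of all genes given above. The folding list gave 2 higher and 2 lower of 25, the UPR list 3 and 4 of 19, and the degradation list 5 and 2 of 34. Ddit3 (CHOP), the transcription factor induced late in ER stress, was at 44.2 and 44.0 TPM in 2D and 31.0 and 34.1 TPM in 3D. It was lower in either 3D culture (log2 fold change -0.47, SE 0.07, adjusted p = 0.00715). Atf4, which acts upstream of Ddit3 when translation is restrained, was at 211 and 192 TPM in 2D and 192 and 185 TPM in 3D, with overlap (-0.14, adjusted p = 0.115). Traf2, an adaptor recruited by IRE1, was at 23.2 and 22.9 TPM in 2D and 16.3 and 17.0 TPM in 3D, clearly apart (-0.49, adjusted p = 0.0061). Crebzf, a bZIP factor, was at 30.0 and 25.7 TPM in 2D and at 46.6 and 46.7 TPM in 3D (0.69, adjusted p = 0.00445).

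In the folding list the smallest p belonged to Tmx4, a membrane-bound thioredoxin-related protein, with 47.9 and 42.5 TPM in 2D and 62.9 and 60.5 TPM in 3D (log2 fold change 0.40, adjusted p = 0.00954). The prolyl isomerases Fkbp7 and Fkbp2 moved in opposite directions, with log2 fold changes of 0.57 and -0.32 (adjusted p = 0.0162 and 0.0274). Fkbp7 was near the filter, at 1.58 to 3.16 TPM, whereas Fkbp2 was at 364 to 475 TPM. In the degradation list Ube2j1, the ubiquitin-conjugating enzyme of the Hrd1 pathway, was at 51.1 and 42.7 TPM in 2D and 67.1 and 65.7 TPM in 3D (0.46, adjusted p = 0.0107). The ubiquitin ligases Tmem129 and Rnf5 were lower, with log2 fold changes of -0.41 and -0.28 (adjusted p = 0.0168 and 0.0187). Of these 9 called genes, without 3D R2 only Crebzf was called (adjusted p = 0.0499), and without 3D R1 none of the 78 genes was called. The number called among the 78 rose without 2D R1 and fell without 2D R2.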

How the data were processed

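RNA-seq of poly-A RNA (TruSeq stranded mRNA, NextSeq 500, 75-base single-end reads per the labels) was available for 2 samples of 2D monolayer and 2 of 3D-bioprinted INS-1 832/3 cells. The authors checked reads with FastQC 0.11.8, quantified transcripts with Salmon 1.2 (reference rn4 plus human insulin), and the deposited values are TPM, which sum to 1000000 in each sample. The tables write decimal commas. Depth is unknown from TPM, so no counting interval is given, and the count-based steps of the study were not repeated.

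TPM were summed per gene symbol. Genes averaging 1 TPM or more (11960) were kept. Samples were scaled by TMM without weights, trimming 30% of M values and 5% of A values from both ends (factors 0.96 to 1.02). The comparison used limma 3.58.1 in R 4.3.3 on log2(TPM + 1), with a trended prior variance, Benjamini-Hochberg adjustment over all genes kept and a threshold of 0.05. Fold changes on this scale understate those of low genes. No transcript above 0 had identical values in any pair of samples. On simulated TPM for the same comparison (11993 genes), 43% of the 93 genes changed by 0.5 on the log2 scale were called. Of the 107 changed by 1, 85% were called, and 4.38% of calls were unchanged genes. No other simulated gene was changed, whereas 38.0% of all genes were called in the data. Each simulated gene also took a spread averaged over genes of similar level. The simulated shares therefore do not give the share of real changes found, or of false calls, in the data.

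The members, the other pathway lists, the arms and the tests were chosen with earlier results of these data known. Members called, and Hspa5, Hsp90b1, Xbp1, Ern1, Atf6, Eif2ak3 and Wfs1, are given with every sample's value, the other members by arm, and of the other pathway genes the 3 with the smallest p per list plus Atf4 and Ddit3. Alternatives were the scaling, pseudocount, filter, empirical Bayes trend, replicate block, threshold and each culture left out. Promoter windows came from RefSeq (GRCr8). Protein sequences were not used here.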

Additional observations from a re-analysis of the deposited data

How the results depend on the processing

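TPM carry no depth, so precision rested on the spread of 2 cultures per group, moderated over all genes tested. A culture left out leaves 1 sample whose spread is assumed to be that of the other group. The causes of the shifts below were not tested, apart from the fewer samples or the changed number of genes that a setting itself brings. Without the filter 3739 of 16749 genes were called, and 4099 of 9498 at a mean TPM of at least 5. Over all genes, 4543 were called, 1436 at an adjusted p below 0.01, and 108 to 4473 with 1 culture left out, fewest without 3D R1. Members called higher numbered 5, with 1 without the filter, 8 at a mean TPM of at least 5, 1 at 0.01 and 0 to 6 with 1 culture left out. Members called lower numbered 10, with 2 at 0.01 and 1 to 8 with 1 culture left out. Other pathway genes called higher numbered 10, with 5 without the filter, 2 at 0.01 and 0 to 18 with 1 culture left out, and those called lower numbered 8, with 2 at 0.01 and 0 to 7 with 1 culture left out. The median log2 fold change of the chaperones was -0.27 and -0.3577 to -0.1768 with 1 culture left out, smallest in size without 3D R1. The median of the disulfide genes was -0.04, 0.0067 without scaling and -0.0352 to 0.0041 with 1 culture left out, and that of the degradation genes was 0.01, -0.0264 without the filter and -0.0749 to 0.0616 with 1 culture left out.

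Estimates near 0 changed sign for 5 genes, none of them called. Pdia3 was at 0.0439 without scaling, 0.0055 with median of ratios scaling and 0.0236 at a mean TPM of at least 5, and at -0.0352 to 0.0332 with 1 culture left out. Prdx4 was at 0.0067 without scaling and -0.0784 to 0.0041 with 1 culture left out. Herpud1 was at -0.0264 without the filter and -0.0749 to 0.0920 with 1 culture left out. Syvn1 was at 0.0269 without scaling, 0.0070 at a mean TPM of at least 5 and -0.0960 to 0.0616 with 1 culture left out. Derl1 was at -0.0258 without the filter and -0.0188 to 0.0375 with 1 culture left out. Leaving the samples unscaled moved the median of all genes to 0.0364, from -0.0035.

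Deviations from the group means of same-numbered samples correlated at -0.006 over all genes and -0.034 over the members. With 2 samples per group this compares a single difference in each group. It cannot tell whether same-numbered cultures were handled together. With the replicate number as a block 17 members were called, 14 of them among the 15. Over all 11960 genes 4805 were called with the block, against 4543 without it.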
